A study of Neurospora crassa OR74A with 12 samples.

Results

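The transcripts described here are those of DNA damage checkpoint and repair genes of the filamentous fungus *Neurospora crassa*. A group of 10 such genes was chosen by locus for their known roles, out of 10685 genes in the deposited table, and 9 of them are described. No measured value entered the rule, though earlier results of these data were known when the genes were chosen. The sensor kinases are *mus-9* (NCU11188, the ATR kinase) and *mus-21* (NCU00274, the ATM kinase). The effector kinases are *mus-58* (NCU08346, the Chk1 kinase), *mus-59* (NCU02751) and *prd-4* (NCU02814), which are both Chk2 kinases. Homologous recombination is represented by *mus-11* (NCU04275, the Rad52 protein). Non-homologous end joining is represented by *mus-51* (NCU08290, Ku70), *mus-52* (NCU00077, Ku80) and *mus-53* (NCU06264, DNA ligase IV). All 9 had enough reads to be tested, among 7878 genes that did.

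In the checkpoint of fungi and animals, ATR and ATM are large kinases that are recruited to damaged DNA and to stalled replication forks, and they phosphorylate the smaller Chk1 and Chk2 kinases, which delay the cell cycle. Broken ends are then rejoined by either of the repair routes: homologous recombination, in which Rad52 takes part, copies from an intact template, whereas the Ku heterodimer holds the ends for DNA ligase IV. In *N. crassa*, *prd-4* also connects damage to the circadian clock, since a mutant allele of it shortens the clock period, and loss of Ku70 is widely used in this fungus to raise the efficiency of gene replacement.

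RNA was sequenced from mycelia of 2 strains. In *upf-1*KO, the gene of UPF-1, a helicase of nonsense-mediated mRNA decay, was replaced with a hygromycin resistance cassette, and the WT strain of the same background in the study was 87-3. Per the strain list of the study both carried the *bd* allele of *ras-1*, while the sample labels name the reference strain OR74A for all 12 samples. Each strain was cultured with 20 mM H2O2 or without it, and each of the 4 groups (*upf-1*KO with H2O2, WT with H2O2, untreated *upf-1*KO and untreated WT) held 3 independent pools of mycelium. The time of exposure to H2O2 is not given in the sources used here. Per the methods of the study, the hygromycin knockouts were made in a host strain whose *ku70* gene, that is *mus-51*, had been mutated to hold premature stop codons, while the strain list of the study enters no *ku70* allele for *upf-1*KO. The WT strain was not that host. For *mus-51*, the loss of *upf-1* and the host background therefore cannot be told apart.

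Library depth, as reads counted on genes, was between 5891672 and 7703271. The *upf-1* gene itself (NCU04242) had 374, 257 and 375 reads in the *upf-1*KO libraries with H2O2, against 591, 501 and 588 reads in the WT libraries with H2O2. Without H2O2 it had 232, 232 and 236 reads in *upf-1*KO, against 741, 748 and 622 in WT. It was thus lower in every *upf-1*KO library than in any WT library of the same treatment, without being at 0. Of 5 genes of conidia, the asexual spores (*con-6*, *con-8*, *con-10*, *con-13* and *eas*), *eas* made up nearly all of the summed level, which was between 75840 and 115600 normalized counts in *upf-1*KO with H2O2 and between 9646 and 9855 in WT with H2O2. It was between 56080 and 60860 in untreated *upf-1*KO and between 66310 and 81140 in untreated WT. The less abundant of these genes did not follow the sum: without H2O2, *con-8* had 22.3 to 29.7 normalized counts in *upf-1*KO against 1.71 to 3.84 in WT, and *con-6* and *con-13* were likewise higher in every *upf-1*KO library. With H2O2 in WT, *con-10* had 7.11 to 19.1 normalized counts, against 1.71 to 5.38 without it, while the sum was lower. In WT with H2O2, *con-13* was at 0 in some libraries, as was *con-6*, and the part of spore transcripts in the results was not tested. Normalized counts here are reads divided by the library's size after TMM scaling, relative to its mean over the 12 libraries. In mycelium as a bulk sample, fewer cells of a type and less RNA per cell cannot be told apart.

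A single library, replicate 2 of *upf-1*KO with H2O2, stood apart from its group. Its Spearman correlation with the other replicates over all genes tested was at most 0.88, whereas replicates 1 and 3 of that group correlated at 0.99 with each other. It held more transcript than both other replicates for 8 of the 9 genes, all but *mus-51*, where 45.3% of all genes tested did so. It was at least 4-fold above both other replicates for 538 genes (6.83% of those tested), a limit chosen after seeing the data, and these included 4 of the 9 genes, *mus-58*, *mus-11*, *mus-52* and *mus-53*. With 257 reads on *upf-1* it lay below every WT library, which bears on its genotype label only. No cause was tested. Where results of edgeR with TMM factors that rest on *upf-1*KO with H2O2 are given below, they are with this library and without it. Not every comparison is given for every gene. Results of other groups, which share the estimate of spread with it, are given without it where leaving it out changed the call. Values under another scaling are with all libraries. In WT with H2O2, replicate 1 was at least 4-fold above both other replicates for 1.47% of genes, *prd-4* among them.

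**Figure D1:**
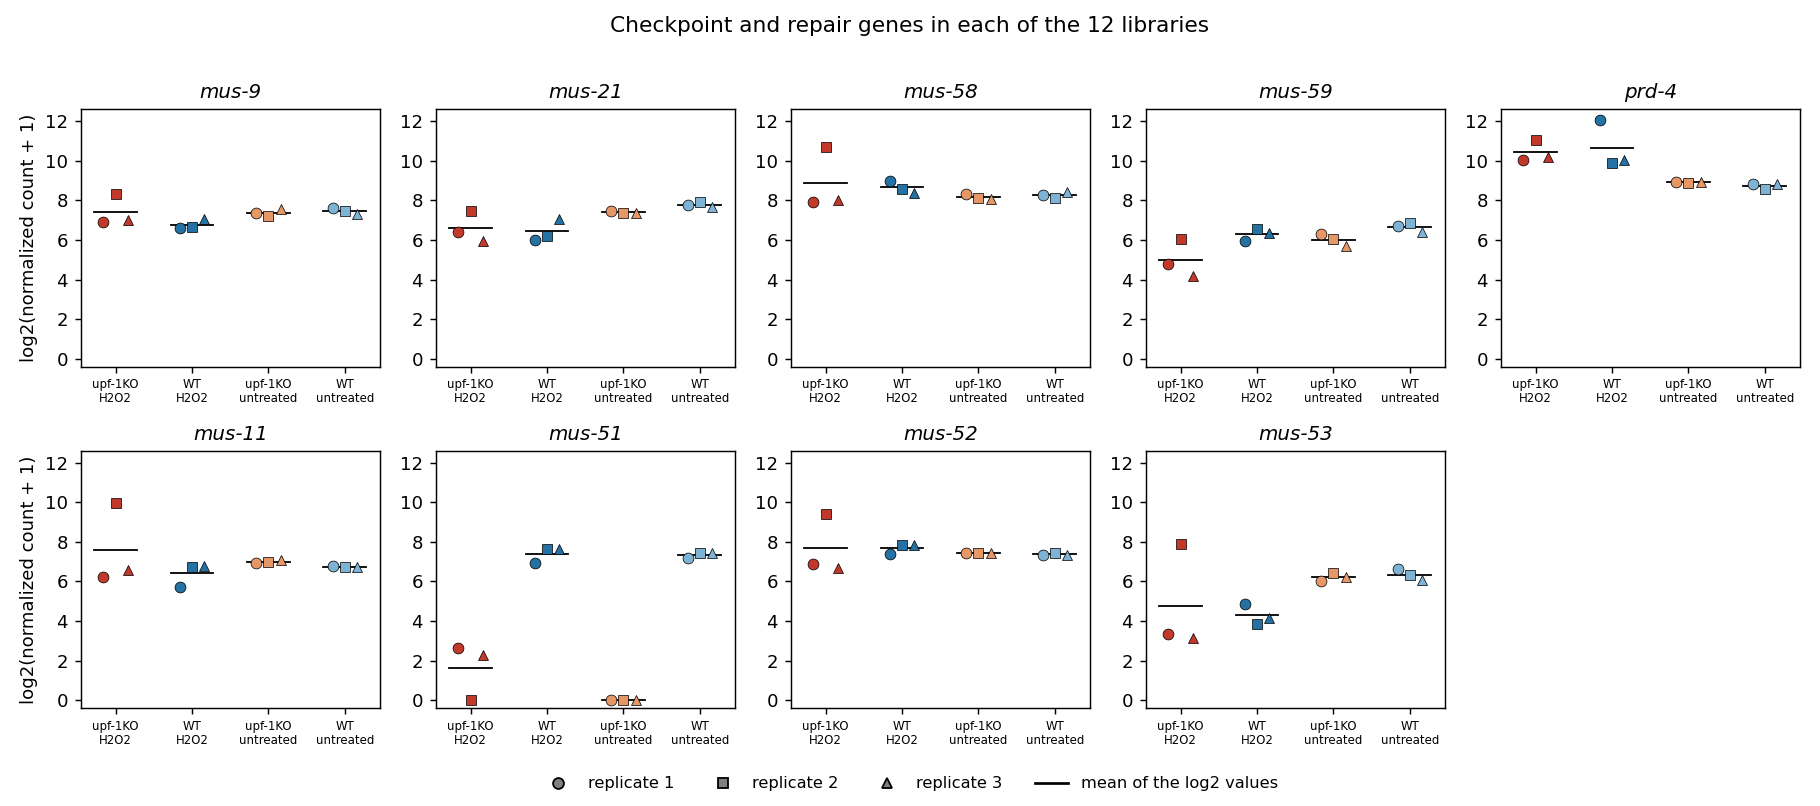
Level of each gene in the 12 libraries, as log2(normalized count + 1), with *upf-1*KO left of WT and H2O2 left of no treatment; points are libraries, shapes are replicate numbers and lines are the mean of the log2 values. Replicate 2 of *upf-1*KO with H2O2 (red squares) is the highest of its group for all genes but *mus-51*, which has no reads in untreated *upf-1*KO.

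Per kilobase of exon, which allows levels to be compared between genes, *prd-4* had the highest mean level of the 9 in untreated WT, with 145 ± 15.8 normalized counts per kilobase (SD, n = 3), followed by *mus-58* with 131 ± 12.2. These neighbours in the order did not differ beyond their spread. The Ku70 gene *mus-51* (70.4 ± 6.86), *mus-52* (53.4 ± 1.90) and *mus-11* (44.3 ± 0.984) came next in this order, each apart from the next by more than their spread. The sensor kinases *mus-21* (23.0 ± 2.11) and *mus-9* (22.2 ± 2.44), the ligase gene *mus-53* (22.7 ± 4.28) and *mus-59* (22.7 ± 3.67) were lowest and did not differ from each other beyond their spread. In untreated *upf-1*KO the order began in the same way, with *prd-4* at 162 ± 2.65 and *mus-58* at 122 ± 13.2 normalized counts per kilobase, and *mus-51* at 0. With H2O2 in WT, *prd-4* (705 ± 640) and *mus-58* (172 ± 39.4) were still highest and *mus-53* was lowest (5.45 ± 2.18).

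Genes were called in edgeR's quasi-likelihood test at a Benjamini-Hochberg adjusted p-value under 0.05 over all genes tested. Between untreated *upf-1*KO and untreated WT, 1 of the 9 genes was called, *mus-51*, which was lower in *upf-1*KO, where 4.71% of all genes were called lower and 10.4% higher. With H2O2 against none, 1 gene was higher (*prd-4*) and 1 lower (*mus-21*) in WT, beside 26.5% of all genes higher and 30.2% lower. In *upf-1*KO, the same contrast called 2 of the 9 higher (*prd-4* and *mus-51*) and none lower, beside 26.0% of all genes higher and 22.8% lower. Between *upf-1*KO and WT, both with H2O2, *mus-51* was lower and none of the 9 higher, where 15.5% of all genes were called higher and 27.5% in either direction. A difference between the strains in the H2O2 effect was called for none of the 9 genes, where 6.71% of all genes were called. At an unadjusted p-value under 0.05, 1 of the 9 had such a difference (*mus-51*), and DESeq2 called 1 at its adjusted p-value. Without replicate 2 of *upf-1*KO with H2O2, edgeR called *mus-51*, on 7 reads in *upf-1*KO, and *mus-52*, in a fit that called 16.7% of all genes. DESeq2 gave no p-value to 3 of the 9, *mus-58*, *mus-11* and *mus-53*. Except for the lower call without H2O2, the share of the 9 that was called was below that of all genes, in some comparisons only narrowly. With 9 genes such shares are coarse, and a difference in share was not tested.

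The H2O2 results depended on how the libraries were scaled. The 10 most abundant genes took 18.8% to 29.8% of the reads in WT with H2O2, against 10.1% to 11.3% in untreated WT. When scaled to library totals alone, without TMM factors, the median log2 fold change of all genes with H2O2 moved to -1.36 in WT (-0.13 with TMM) and to -0.64 in *upf-1*KO (0.08 with TMM). The split of calls moved with it, to 7.25% of genes higher and 67.3% lower in WT, and to 9.22% higher and 43.2% lower in *upf-1*KO. Between *upf-1*KO and WT with H2O2 the split with library totals was 52.6% higher and 2.87% lower, with a median of 0.91 (0.17 with TMM), and without H2O2 it was 1021 genes higher and 185 lower (821 and 371 with TMM), with a median of 0.07 (-0.13 with TMM). On library totals the H2O2 effect in WT turned in direction for *mus-58* (-0.83), *mus-52* (-0.90) and *mus-51* (-1.18), and that in *upf-1*KO for *mus-9* (-0.43) and *mus-53* (-0.31). The changes given below are with TMM factors, that is, close to changes relative to the median gene.

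The sensor kinase genes are the longest of the 9. The *mus-21* gene (chromosome III, 3258938 to 3268638 in the NC12 assembly) has 9486 bases of exon and *mus-9* (chromosome I, 7782698 to 7790990) has 7840, which puts them at the 99.8th and the 99.4th percentile of the genes tested. In WT, *mus-21* had 64.0, 73.7 and 133 normalized counts with H2O2, against 218, 239 and 199 without it. All libraries with H2O2 lay below all untreated ones, as they did for 39.4% of all genes. This was a log2 fold change of -1.27 (SE 0.37, edgeR adjusted p = 0.0118), and it was no longer called without replicate 1 of WT with H2O2 (-0.99, adjusted p = 0.0527).

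In *upf-1*KO, *mus-21* had 82.7, 173 and 59.8 normalized counts with H2O2, against 177, 161 and 164 without it. Replicate 2 lay among the untreated libraries and the other replicates lay well below them. H2O2 changed *mus-21* by -0.66 on the log2 scale (SE 0.36, edgeR adjusted p = 0.146) with all libraries and -1.23 (SE 0.26, adjusted p = 0.0013) without replicate 2. Between the strains with H2O2, *upf-1*KO differed from WT by 0.22 (adjusted p = 0.673), or by -0.35 (adjusted p = 0.36) without replicate 2. Without H2O2, *mus-21* was lower in every *upf-1*KO library than in any WT library, as 40.3% of all genes were. That difference was -0.39 on the log2 scale (SE 0.35) and was not called (edgeR adjusted p = 0.510), though it was in a fit of the untreated groups alone (-0.26, adjusted p = 0.0376), which called 27.0% of all genes lower. Its annotated span, from first to last exon, overlaps that of the neighbouring gene NCU00275. Whether the exons themselves overlap was not examined, and whether reads were counted by strand is not given in the sources used here. The values of *mus-21* may therefore be uncertain by the reads of that neighbour.

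For *mus-9*, normalized counts in WT were 96.0, 98.3 and 133 with H2O2, against 194, 173 and 155 without it. The groups did not overlap, as for 39.4% of all genes, and the log2 fold change of -0.67 (SE 0.34) was not called with all libraries (edgeR adjusted p = 0.114). It was called once replicate 2 of *upf-1*KO with H2O2 was left out, which narrowed the spread that all groups shared (-0.67, SE 0.17, adjusted p = 0.00399), in a fit that called 37.7% of all genes lower. In *upf-1*KO, *mus-9* had 119, 315 and 126 normalized counts with H2O2, against 162, 146 and 186 without it. Replicate 2 lay above all untreated libraries and the other replicates below them, and edgeR called no change with it (0.19, adjusted p = 0.667) or without it (-0.43, adjusted p = 0.0577). Between the strains with H2O2, *upf-1*KO differed from WT by 0.78 (adjusted p = 0.108), or by 0.16 (adjusted p = 0.548) without replicate 2.

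The length of these genes bears on their values with H2O2. Over all genes tested, the log2 fold change with H2O2 was lower for longer genes in WT (Spearman's rho = -0.43 across 7878 genes, which are not independent replicates) and in *upf-1*KO (rho = -0.42). After the trend with gene length was removed from each library, the H2O2 effect in WT was 0.31 for *mus-21* (edgeR adjusted p = 0.356) and 0.80 for *mus-9* (adjusted p = 0.00736), so both turned in direction, in a fit that called 30.1% of all genes higher. In *upf-1*KO it was 0.45 for *mus-21* (adjusted p = 0.178) and 1.21 for *mus-9* (adjusted p = 0.000683), where 24.5% of all genes were called higher. The direction thus turned with the treatment of gene length for *mus-21* in both strains and for *mus-9* in WT. For *mus-9* in *upf-1*KO it was above 0 with and without the length trend, with all libraries. On library totals that value was -0.43, and with TMM factors but without replicate 2 it was -0.43 as well. The fit with the length trend removed was not repeated without that library. Which of the scales fits the transcripts was not tested.

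**Figure D2:**
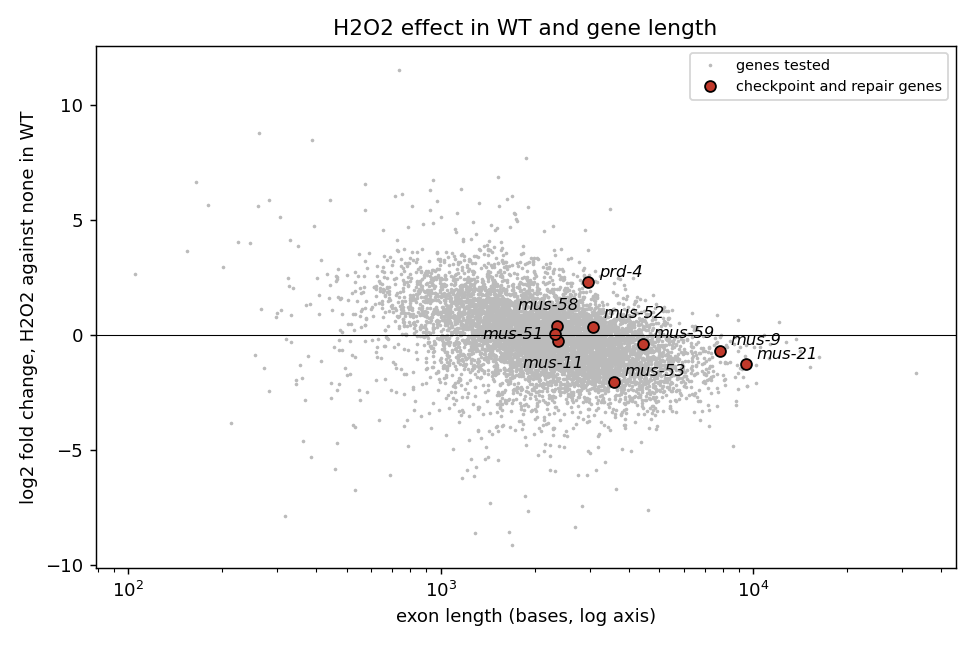
Log2 fold change with H2O2 against none in WT (y axis) plotted against exon length in bases (x axis, log scale) for the 7878 genes tested, with the 9 checkpoint and repair genes in red. The sensor kinases *mus-9* and *mus-21* are the longest of the 9, and *prd-4* at 2.29 lies above most genes of its length.

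Among the effector kinases, *prd-4* (chromosome I, 9031103 to 9034316) was the gene with the largest called change of the 9 in WT with H2O2. It had 4273, 933 and 1055 normalized counts with H2O2 in WT, against 451, 374 and 460 without it. Every H2O2 library lay above every untreated one, as for 29.7% of all genes, and replicate 1 stood well above the other replicates. With all libraries the log2 fold change was 2.29 (SE 0.50, edgeR adjusted p = 0.00226) and stayed called without that replicate (1.29, adjusted p = 0.00123).

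In *upf-1*KO, *prd-4* had 1061, 2110 and 1157 normalized counts with H2O2, against 483, 472 and 487 without it. Again the groups did not overlap, as for 29.2% of all genes. Here the log2 fold change was 1.59 (SE 0.49, edgeR adjusted p = 0.0186), or 1.21 (adjusted p = 0.0440) without replicate 2 of *upf-1*KO with H2O2. It missed the threshold when 1 of the untreated *upf-1*KO libraries was left out (adjusted p = 0.055 without replicate 1, 0.0562 without replicate 2 and 0.0543 without replicate 3), with log2 fold changes between 1.57 and 1.59.

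Scaled to library totals alone, *prd-4* was 1.11 higher on the log2 scale with H2O2 in WT (edgeR adjusted p = 0.100) and 0.94 higher in *upf-1*KO (adjusted p = 0.189), so the call was lost, while the median gene moved to -1.36 and -0.64 on that scale. With the length trend removed the change was 2.84 in WT (adjusted p = 0.000253) and 1.90 in *upf-1*KO (adjusted p = 0.00388). The H2O2 effect in *upf-1*KO minus that in WT was -0.70 on the log2 scale (SE 0.68), a difference that was not called (adjusted p = 0.535) and that was 0.15 (adjusted p = 0.777) without replicate 1 of WT with H2O2 and -1.08 (adjusted p = 0.295) without replicate 2 of *upf-1*KO with H2O2. With H2O2, *prd-4* in *upf-1*KO differed from WT by -0.53 (adjusted p = 0.417), or by -0.91 (adjusted p = 0.173) without replicate 2 of *upf-1*KO. Without replicate 1 of WT with H2O2 this turned to 0.43 (adjusted p = 0.19). Of the 9 genes, *prd-4* was the only one called higher with H2O2 in both strains in edgeR with all libraries.

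Without H2O2, *prd-4* had slightly more transcript in every *upf-1*KO library than in any WT library, as 25.7% of all genes did. The log2 difference was 0.17 (SE 0.48) and was not called with all libraries (edgeR adjusted p = 0.855). In a fit of the untreated groups alone, which called 29.7% of all genes higher, it was 0.29 (adjusted p = 0.00664).

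The other Chk2 kinase gene, *mus-59* (chromosome I, 3431993 to 3436658), was not called higher. In WT it had 60.4, 92.8 and 81.3 normalized counts with H2O2, against 103, 116 and 83.7 without it, and the groups overlapped (-0.38, SE 0.40, edgeR adjusted p = 0.436). In *upf-1*KO it had 26.2, 64.5 and 16.9 with H2O2, against 78.6, 64.8 and 50.9 without it. Replicates 1 and 3 with H2O2 lay below all other libraries of the 4 groups, and rested on 20 and 13 reads. The H2O2 effect in *upf-1*KO was -0.83 (SE 0.41, adjusted p = 0.110) with all libraries and -1.58 (SE 0.32, adjusted p = 0.000932) without replicate 2. This gene is also long, and with the length trend removed its H2O2 effect was -0.19 in *upf-1*KO (edgeR adjusted p = 0.649) and turned to 0.65 in WT (adjusted p = 0.0957). On library totals it was called lower in *upf-1*KO (-1.45, adjusted p = 0.0263) and in WT (-1.63, adjusted p = 0.00956), where the median gene was lower as well.

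Between the strains, without H2O2, every *upf-1*KO library lay below every WT library for *mus-59*, as for 40.3% of all genes, with a log2 difference of -0.64 (SE 0.39, edgeR adjusted p = 0.302), which was called without replicate 2 of *upf-1*KO with H2O2 (-0.65, adjusted p = 0.0387, 19.1% of all genes lower) and in a fit of the untreated groups alone (-0.52, adjusted p = 0.0212, 27.0% of all genes lower). With H2O2 the difference was -1.09 (SE 0.42, adjusted p = 0.0711) with all libraries and -1.83 (SE 0.34, adjusted p = 0.00155) without replicate 2 of *upf-1*KO, in a fit that called 18.2% of all genes lower. With all 12 libraries it was called by DESeq2 (-1.23, adjusted p = 0.0194), with RLE factors (-1.23, edgeR adjusted p = 0.0441), with the length trend removed (-1.34, adjusted p = 0.0101) and with a replicate block (-1.22, adjusted p = 0.0452), but on library totals it was -0.26 (adjusted p = 0.651). The difference between the strains in the H2O2 effect was not called by edgeR with TMM factors (adjusted p = 0.644, and 0.0666 without replicate 2). Of the Chk2 kinase genes, *prd-4* was thus called higher with H2O2 in both strains, and *mus-59* was called in neither with all libraries and TMM factors.

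The Chk1 kinase gene *mus-58* (chromosome I, 5677011 to 5679737) had 243, 1649 and 261 normalized counts in *upf-1*KO with H2O2, against 323, 272 and 267 without it. Replicate 2 alone was raised, to 6.54 times the mean of the other replicates. With that library the log2 fold change was 1.32 (SE 0.58, edgeR adjusted p = 0.0777), and without it -0.19 (SE 0.18, adjusted p = 0.369). In WT the counts were 510, 379 and 331 with H2O2, against 309, 281 and 338 without it, and the groups overlapped (0.40, SE 0.58, adjusted p = 0.578), though the change was called without replicate 2 of *upf-1*KO with H2O2 (0.40, SE 0.16, adjusted p = 0.0447). Between the strains with H2O2, *mus-58* was not called with all libraries (0.82, adjusted p = 0.301) and was lower in *upf-1*KO without replicate 2 (-0.69, adjusted p = 0.0131). RefSeq names this locus *un-1* with *mus-58* as a synonym. Its annotated span overlaps that of NCU08347, though exon overlap was not examined, so its reads may be shared with that neighbour.

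**Figure D3:**
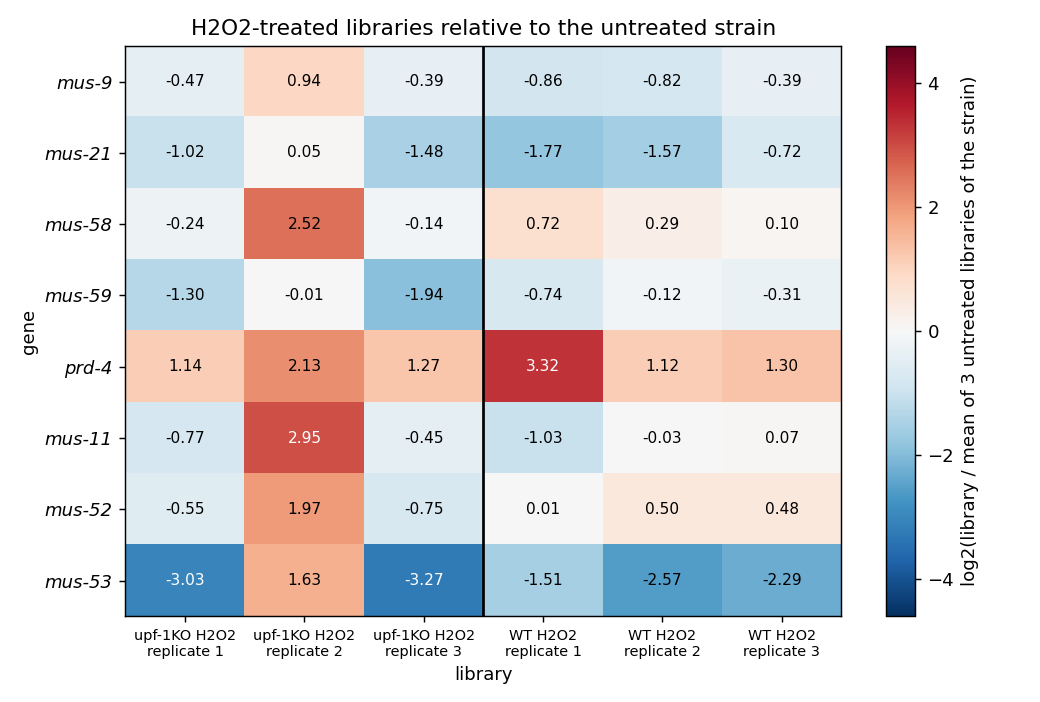
Log2 ratio of each H2O2 library to the mean of the 3 untreated libraries of its strain, for 8 of the 9 genes (rows, in order of role; *mus-51* has no untreated reads in *upf-1*KO), with *upf-1*KO left of WT; red is higher and blue lower than untreated. The row of *prd-4* is above 1 in all 6 libraries, *mus-53* is below -1.5 in all but replicate 2 of *upf-1*KO, and that library is the highest of its group in every row.

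The recombination gene *mus-11* (chromosome V, 5464383 to 5466903) was not raised by H2O2 outside that library. It had 74.8, 984 and 93.6 normalized counts in *upf-1*KO with H2O2, against 121, 126 and 136 without it. Replicate 2 was far above all other libraries, and replicates 1 and 3 were below the untreated ones. Fitted with all libraries, the log2 fold change was 1.60 (SE 0.75, edgeR adjusted p = 0.0977), and it was -0.60 (SE 0.25, adjusted p = 0.0517) without replicate 2. In WT the counts were 51.5, 104 and 111 with H2O2, against 108, 105 and 103 without it, with only replicate 1 clearly below the untreated libraries (-0.26, SE 0.78, adjusted p = 0.795). With H2O2, *upf-1*KO differed from WT by 2.13 (SE 0.79, adjusted p = 0.0637) with all libraries and by -0.05 (adjusted p = 0.894) without replicate 2. Without H2O2, all *upf-1*KO libraries were above all WT libraries, as for 25.7% of all genes, by 0.27 on the log2 scale (SE 0.75, adjusted p = 0.846), or by 0.40 (adjusted p = 0.0107) in a fit of the untreated groups alone, which called 29.7% of all genes higher.

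**Figure D4:**
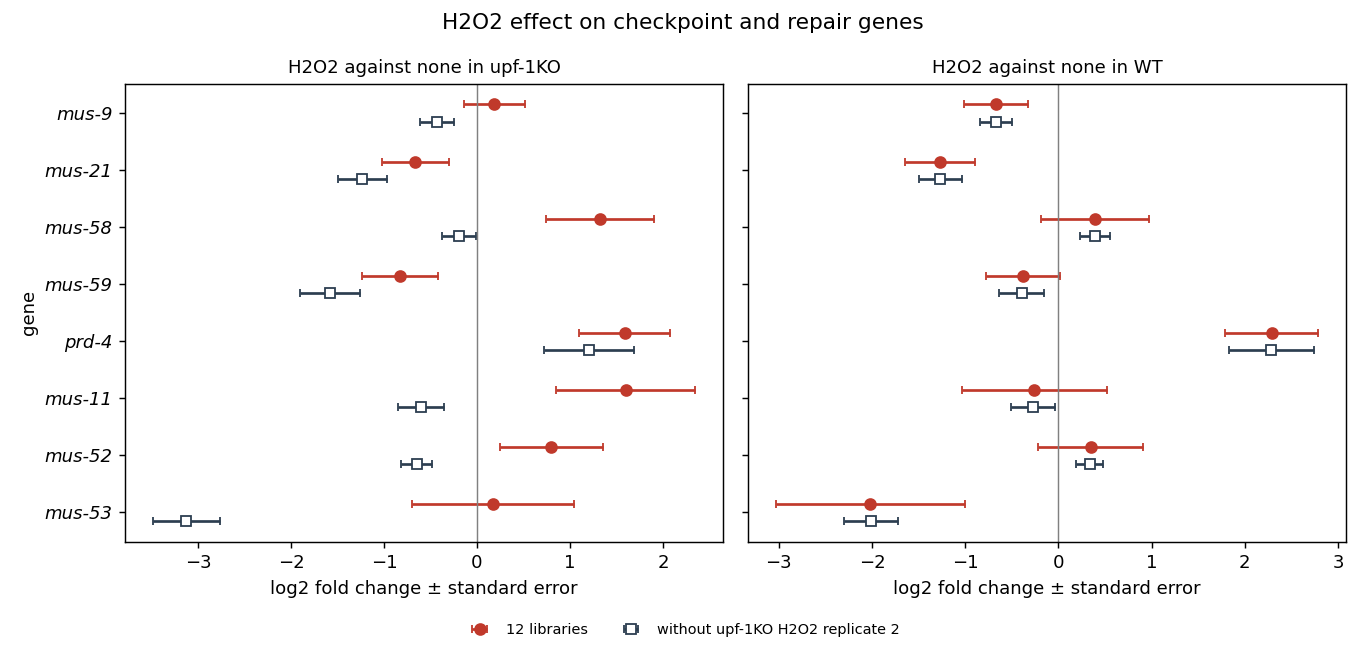
Log2 fold change with H2O2 against none (x axis, bars are the standard error) for 8 of the 9 genes (y axis), in *upf-1*KO on the left and WT on the right, fitted with all 12 libraries (filled circles) and without replicate 2 of *upf-1*KO with H2O2 (open squares). In *upf-1*KO the values of *mus-9*, *mus-58*, *mus-11*, *mus-52* and *mus-53* lie on opposite sides of 0 in the fits, while *prd-4* lies above 0 in both.

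The end joining gene *mus-51* (chromosome IV, 2520412 to 2522837) separated the strains completely. Untreated *upf-1*KO had 0, 0 and 0 reads on it, against 188, 220 and 205 reads in untreated WT. With H2O2, *upf-1*KO had 4, 0 and 3 reads, against 67, 72 and 107 reads in WT. All 6 *upf-1*KO libraries were at or near 0 and all 6 WT libraries were well above, and among all genes *mus-51* was the only one with 0 reads in each untreated *upf-1*KO library and a mean of at least 100 normalized counts in untreated WT.

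Against a floor of 3 reads per library, the counted level of *mus-51* was at least 76.3-fold lower in untreated *upf-1*KO than in untreated WT (edgeR adjusted p = 3.65e-05). With H2O2, the counted level in *upf-1*KO was 1.65% of that in WT, from 7 and 246 reads (edgeR adjusted p = 0.000185). The 95% exact interval of 0.655% to 3.45% covers counting error only. Both differences stayed called whichever 1 of the 12 libraries was left out. Every *upf-1*KO library with H2O2 was below every WT library with H2O2, as for 14.8% of all genes. The genes on either side were counted in both strains: NCU08291, which ends before *mus-51* at 2520262, had 1585, 1384 and 1563 reads in untreated *upf-1*KO, against 1781, 1759 and 1524 in untreated WT, and *dmm-2* (NCU08289) on the other side had 323, 312 and 367, against 458, 499 and 388. Reads were thus absent from *mus-51* and present on its neighbours. As given above, *mus-51* is the gene that was mutated in the host strain of the knockouts. Reads were aligned to the NC12 reference, and whether reads of a mutated copy would align to it was not tested. Few counted reads therefore need not mean little transcript.

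The higher level of *mus-51* with H2O2 that edgeR called in *upf-1*KO (adjusted p = 0.0146, and 0.00276 without replicate 2) rested on those 7 reads against 0, and no fold is given for it. In WT, *mus-51* had 119, 197 and 198 normalized counts with H2O2, against 145, 169 and 175 without it. Replicate 1 was below the untreated libraries and the others above them, and the log2 fold change of 0.07 (SE 0.40) was not called (edgeR adjusted p = 0.899). Scaled to library totals alone, it was -1.18 (adjusted p = 0.0225), close to the median gene on that scale.

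The partner of Ku70 in the heterodimer, *mus-52* (chromosome III, 2531930 to 2535354), was counted in both strains. Without H2O2 it had 173, 171 and 175 normalized counts in *upf-1*KO, against 161, 171 and 161 in WT, a log2 difference of 0.08 (SE 0.55, edgeR adjusted p = 0.941) although the groups just failed to overlap, as for 25.7% of all genes. With H2O2 it had 118, 678 and 103 in *upf-1*KO, against 165, 232 and 229 in WT. Replicate 2 of *upf-1*KO was the highest of all 12 libraries, and replicates 1 and 3 were the lowest.

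Neither the H2O2 effect on *mus-52* in *upf-1*KO (0.80, SE 0.55, edgeR adjusted p = 0.251) nor its difference from WT with H2O2 (0.53, SE 0.56, adjusted p = 0.493) was called with all libraries. Without replicate 2 both turned in direction and were called, the first at -0.65 (SE 0.17, adjusted p = 0.00478), in a fit that called 34.3% of all genes lower, and the second at -0.91 (SE 0.17, adjusted p = 0.00202). The H2O2 effect on *mus-52* in WT was 0.35 (SE 0.56, adjusted p = 0.618) with all libraries and 0.34 (SE 0.15, adjusted p = 0.0584) without that one. The difference between the strains in the H2O2 effect was 0.45 (adjusted p = 0.746) with all libraries and -0.99 (SE 0.22, adjusted p = 0.0118) without replicate 2, in a fit that called 7.27% of all genes lower.

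The DNA ligase IV gene *mus-53* (chromosome III, 2116850 to 2120498) had the lowest level of the 9 in WT with H2O2. It had 28.4, 13.6 and 16.6 normalized counts there (16, 5 and 9 reads), against 97.2, 80.0 and 66.6 in untreated WT. The groups did not overlap, as for 39.4% of all genes, with a log2 fold change of -2.02 (SE 1.02) that was not called with all libraries (edgeR adjusted p = 0.109). Without replicate 2 of *upf-1*KO with H2O2 the fold change was the same and its error smaller (-2.01, SE 0.29, adjusted p = 6.04e-05), and a fit of the WT libraries alone also called it (-1.95, adjusted p = 0.00152), along with 34.7% of all genes as lower. With the length trend removed it was -1.22 (adjusted p = 0.263).

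In *upf-1*KO, *mus-53* had 9.18, 232 and 7.80 normalized counts with H2O2 (7, 234 and 6 reads), against 64.0, 86.2 and 74.7 without it. Replicate 2 was 27.3 times the mean of the other replicates, the largest such ratio of the 9 genes, and at the 99.6th percentile of all genes ranked. The log2 fold change was 0.17 (SE 0.87, edgeR adjusted p = 0.882) with all libraries and -3.12 (SE 0.36, adjusted p = 1.25e-05) without replicate 2. Outside that library, *mus-53* was thus lower with H2O2 in both strains, and the difference between the strains in that effect was -1.12 (SE 0.51) and not called (adjusted p = 0.158). With all libraries that difference was 2.19 (SE 1.34, adjusted p = 0.320), in the opposite direction. Between the strains with H2O2, *mus-53* in *upf-1*KO differed from WT by 2.07 (SE 1.02, edgeR adjusted p = 0.146) with all libraries. Without replicate 2 that difference turned to -1.24 (SE 0.46, adjusted p = 0.0535), and neither was called. Without H2O2 the strains overlapped (-0.12, SE 0.87, adjusted p = 0.942).

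Counted without replicate 2 of *upf-1*KO with H2O2, H2O2 raised 2 of the 9 genes in WT (*mus-58* and *prd-4*) and lowered 3 (*mus-9*, *mus-21* and *mus-53*), where edgeR called 68.5% of all genes and 30.8% as higher. In *upf-1*KO it raised *prd-4*, with *mus-51* called on 7 reads, and lowered 4 (*mus-21*, *mus-59*, *mus-52* and *mus-53*), where 65.2% of all genes were called and 30.9% as higher. Between *upf-1*KO and WT with H2O2, 4 of the 9 were lower (*mus-58*, *mus-59*, *mus-51* and *mus-52*), beside 18.2% of all genes. Of the genes other than *mus-51*, the median log2 fold change with H2O2 in *upf-1*KO was 0.49 over these 8 with all libraries and -0.62 without replicate 2, beside medians of 0.08 and -0.06 over all genes tested. In WT the median over the 8 was -0.32, beside -0.13 over all genes. With the length trend removed these medians turned or grew, to 1.12 in *upf-1*KO and 0.67 in WT, beside 0.10 and 0.11 over all genes, and on library totals they were -0.02 in *upf-1*KO and -1.57 in WT, beside -0.64 and -1.36. Between the strains with H2O2, the median of the 8 was 0.65 in *upf-1*KO relative to WT with all libraries and -0.80 without replicate 2, beside 0.17 and -0.01 over all genes.

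A wider list of 31 further genes was drawn up from RefSeq names linked to DNA repair. It took symbols or synonyms of *mus*, *uvs* or *upr* with a number, and photolyase, mismatch repair, *rad*, RecQ and *cry* names. The list was matched by name, and the function of its genes was not checked. It holds *qde-2* only through the synonym *mus-19*, which RefSeq also gives to *qde-3*, and *cry* by its own symbol. Without H2O2 none of the 31 was called between the strains in edgeR, with 4 at an unadjusted p-value under 0.05 and 1 called by DESeq2, beside 15.1% of all genes called by edgeR, and the median log2 difference was -0.01 (-0.13 over all genes). DESeq2 gave no adjusted p-value to 5 of the 31 in each comparison. In the fit without replicate 2 of *upf-1*KO with H2O2, 6 of the 31 were higher, *qde-2* among them, and none lower, beside 16.7% and 19.1% of all genes. With H2O2 in WT, 3 of the 31 were higher and 10 lower, beside 26.5% and 30.2% of all genes, with a median of -1.03 (-0.13 over all genes). The edgeR calls and medians of this list, here and below, are with TMM factors and the length trend left in. Removing that trend turned the WT median of the genes above, and the list was not summarized on that scale or on library totals. The largest increase was in *mus-8*, the RAD6-type ubiquitin-conjugating enzyme of post-replication repair, with a mean of 2291 normalized counts with H2O2, against 479.5 without it (2.26, SE 0.31, edgeR adjusted p = 9.08e-05). The largest decrease was in *qde-3*, a RecQ helicase, with 9.43 against 146 (-3.93, SE 1.07, adjusted p = 0.00802). The other increases were in *mus-18*, a UV damage endonuclease, and *rad23*, which acts in nucleotide excision repair.

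With H2O2 in *upf-1*KO, 5 of the 31 were higher and 5 lower, beside 26.0% and 22.8% of all genes, with a median of -0.07 (0.08 over all genes). The largest decrease was in *mus-38*, a nucleotide excision repair gene, with 77.4, 77.4 and 53.3 normalized counts in the libraries with H2O2 and a mean of 222 without it (-1.68, SE 0.20, edgeR adjusted p = 6.7e-05). Replicate 2 did not stand apart there, and without it the change was -1.77 (adjusted p = 5.35e-06). The largest increase was in *rad16*, which had 68.2, 1319 and 85.8 normalized counts in the libraries with H2O2 (2.96, SE 0.88, adjusted p = 0.0154). It was again replicate 2 that carried the increase, and *rad16* was not called without it (0.29, adjusted p = 0.269). By contrast, *mus-8* had 2489, 4533 and 2772 normalized counts with H2O2 and a mean of 453 without it (2.85, SE 0.31, edgeR adjusted p = 3.63e-05). Its change was 2.54 (adjusted p = 5.14e-06) without replicate 2. The increases in *mus-18* and *rad23* also stayed called without that library, while that in *uvs-5* did not (0.41, adjusted p = 0.0643). Without that library, 3 of the 31 were higher and 20 lower with H2O2 in *upf-1*KO, beside 30.9% and 34.3% of all genes, with a median of -0.94. In WT, 5 were higher and 22 lower in that fit, beside 30.8% and 37.7%, with a median of -1.03.

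Replicate 2 of *upf-1*KO with H2O2 was above both other replicates for 26 of the 31 genes and at least 4-fold above both for 13, beside 45.3% and 6.83% of all genes. The widest gap was at *mus-40*, with 6.56, 352 and 6.497 normalized counts in the replicates. Between *upf-1*KO and WT with H2O2, 6 of the 31 were higher and none lower, beside 15.5% of all genes higher and 27.5% in either direction, led by *mus-42*, which RefSeq also names *rev1*, the translesion polymerase, with 7.87, 194 and 22.1 normalized counts in *upf-1*KO and a mean of 5.73 in WT (3.91, SE 1.18, edgeR adjusted p = 0.0299). Without replicate 2, 1 was higher (*mus-26*) and 3 were lower (*cry*, *rad23* and *rad16*), beside 17.8% and 18.2% of all genes. None of the 31 was called for a difference between the strains in the H2O2 effect in edgeR, with 4 at an unadjusted p-value under 0.05. DESeq2 called none and gave no adjusted p-value to 5 of them. Without replicate 2, edgeR called 2 lower (*cry* and *rad23*), beside 7.27% of all genes. The median of this difference over the 31 was 0.81 with all libraries and -0.18 without replicate 2, beside 0.15 and 0.03 over all genes.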

How the data were processed

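Reads of 12 libraries were aligned by the authors to the NC12 genome with HISAT2 (version 2.2.1 in the submitters' processing notes) and counted on genes with featureCounts (Subread 2.0.1). The deposited counts are whole numbers without normalization. The deposited table also holds FPKM values that the authors computed from the same reads, which were not used, and another column with the exon length of each gene, which was. Genes were kept with filterByExpr (7878 of the 9610 with any read) and fitted over all 4 groups in R 4.3.3 with edgeR 4.0.16 (TMM factors, glmQLFit and glmQLFTest), where the study used DESeq2. Summaries were made in Python 3.11.15 with scipy 1.17.1. Depth was 5891672 to 7703271 reads per library. Intervals and the floor of 3 reads cover counting error only, and p-values measure the spread between pools. RefSeq names matched 10588 loci, including all 9 genes described.

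The members and lists were chosen with earlier results of these data known. Of the group of 10, 1 gene is not reported here, nor is 1 gene of the wider repair list. The genes named were the other 9, *upf-1*, the genes of the wider repair list with the largest called increase and decrease in each comparison, and the 3 genes most correlated with *prd-4* and *mus-51*. Others of the wider list (*mus-18*, *rad23*, *mus-40*, *mus-26*, *cry*, *qde-2*, *uvs-5*), the neighbours of *mus-51* and the 4-fold limit were chosen after their values were seen. Alternatives were DESeq2 1.42.0, RLE factors, library totals, no filter, at least 10 counts in every library, only the 2 groups compared, removal of the length trend (loess, span 0.5), a replicate block, the threshold of the study (a 2-fold change, that is 1 on the log2 scale, at an unadjusted p of 0.05) and each library left out. Only the main edgeR fit was tested on simulated counts, with changes set in untreated *upf-1*KO and read in its comparison with untreated WT. The other comparisons and the alternatives were not tested in this way. The methods name more than 1 sequencing instrument without saying which samples ran on which, so instruments could not be compared.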

Additional observations from a re-analysis of the deposited data

How the results depend on the processing

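Of 909 values of single genes under the alternatives, 8 changed direction with a call on either side. With the length trend removed, the H2O2 effect in WT was 0.31 for *mus-21* and 0.80 for *mus-9*, and with library totals alone it was -1.18 for *mus-51*. Without replicate 2 of *upf-1*KO with H2O2, the H2O2 effect in *upf-1*KO was -0.65 for *mus-52* and -3.12 for *mus-53*, the difference from WT with H2O2 was -0.69 for *mus-58* and -0.91 for *mus-52*, and the difference between the strains in the H2O2 effect was -0.99 for *mus-52*. The causes were not tested. With each library left out in turn, the 5 values that turned without replicate 2 ranged, in the order given, between -0.65 and 1.03, -3.12 and 0.52, -0.69 and 1.10, -0.91 and 0.81, and -0.99 and 0.61.

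The number of the 9 genes called in untreated *upf-1*KO against WT (1) was 0 with at least 10 counts in every library, which removes *mus-51*. It was 5 with only those groups, where 56.7% of all genes were called (15.1% in the main fit), and 1 to 2 with a library left out. With H2O2 in WT (2) it was 5 with library totals, 4 with only those groups and 1 to 5 with a library left out. Of all genes, 74.5% were called there with library totals and 64.5% with only those groups (56.6% in the main fit). In *upf-1*KO (2) it was 1 with at least 10 counts in every library, 1 with only those groups and 1 to 6 with a library left out. The 6 were without replicate 2 of *upf-1*KO with H2O2, where 65.2% of all genes were called. With only those groups it was 42.8% of all genes, and 48.8% in the main fit. Between *upf-1*KO and WT with H2O2 (1) it was 2 with DESeq2, 2 with RLE factors, 4 with library totals, 0 with at least 10 counts in every library, 3 with the length trend removed, 2 with a replicate block, 3 at the threshold of the study and 1 to 4 with a library left out. For the difference between the strains in the H2O2 effect (0) it was 1 with DESeq2, 1 with library totals, 1 at the threshold of the study and 0 to 2 with a library left out.

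Over all genes, 1192 were called in untreated *upf-1*KO against WT, 4376 with only those groups and 713 to 2853 with a library left out. Between *upf-1*KO and WT with H2O2 2165 were called, 4371 with library totals, 291 with only those groups and 1430 to 2869 with a library left out. For the difference between the strains in the H2O2 effect 529 were called, 940 with DESeq2, 1201 with library totals, 1265 at the threshold of the study and 169 to 1328 with a library left out.

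Replicate numbers did not pair the libraries, since the correlation of same-numbered libraries' deviations was between -0.264 and 0.245. With a replicate block, 328 genes were called for the difference between the strains in the H2O2 effect, and among the 9 genes *mus-59* gained a call between *upf-1*KO and WT with H2O2 (-1.22, adjusted p = 0.0452).

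Depth limits *mus-53* and *mus-51* with H2O2, which rested on fewer than 20 reads in several libraries. A fit without a library that leaves 2 in a group relies on the spread of the other groups. Filters removed *mus-51* and *mus-53* (at least 10 counts in every library), *mus-51* (only the *upf-1*KO groups, with and without H2O2) or *mus-53* (only the groups with H2O2), so those have no value there.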

Other observations

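Over the 12 libraries, the levels of several of the 9 genes ran together. As a description, Pearson's r of the log2 normalized counts was highest for *mus-58* with *mus-52* (0.90), *mus-11* with *mus-52* (0.87) and *mus-9* with *mus-11* (0.84), and lowest for *mus-21* with *prd-4* (-0.69). These points share libraries, depth and, for the highest values, the same raised library, replicate 2 of *upf-1*KO with H2O2.

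Among 5599 genes whose mean normalized count was 100 or more, those most like *prd-4* over the 12 libraries were NCU06616 (r = 0.98), NCU04649 (0.98) and NCU01068 (0.98). NCU06616 averaged 808 normalized counts in *upf-1*KO with H2O2, 837 in WT with H2O2, 169 in untreated *upf-1*KO and 116 in untreated WT.

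Those most like *mus-51* were NCU00090 (0.96), NCU08148 (0.95) and NCU07894 (0.95). NCU07894 was also low in *upf-1*KO, with means of 23.6 normalized counts with H2O2 and 6.47 without it, against 289.8 and 138 in WT, but it was not at 0 as *mus-51* was.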
